A study of Homo sapiens with 18 samples.

Results

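Neurotrophin genes were followed across the MCF10 series of breast epithelial lines, in 18 RNA sequencing libraries. The genes were NGFR, BDNF, NTRK2, NTRK3, SORT1 and SORCS2, which are 6 of the 35933 genes with values, and they were chosen by symbol. The group was taken up because NGFR was among the largest rises between the knockdown and the negative CRISPR line of MCF10A, so no test of the members is given in that contrast. MCF10A is an immortalized, non-tumorigenic breast epithelial line. MCF10AT1 carries a mutated HRas, and MCF10CA1h was obtained from it by serial passage as mouse xenografts. Each line was given either a control guide RNA (Control Negative CRISPR) or a guide against exon 1 of METTL3 (METTL3 CRISPR knockdown). Per the study's methods the cells were sorted for mCherry and cloned from single cells, and 1 knockdown line per parental line was sequenced, so a difference between clones and an effect of the guide cannot be told apart. Each of the 6 groups held 3 replicates, a, b and c, of 1 line, and their spread may be technical. All lines were grown in the same medium with horse serum and epidermal growth factor.

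Neurotrophins are secreted growth factors that are made as proneurotrophins and cleaved to the mature ligands. Mature BDNF and NT-4 (NTF4) bind the tyrosine kinase receptor TrkB, encoded by NTRK2, while TrkC (NTRK3) binds NT-3. The p75 neurotrophin receptor, encoded by NGFR, belongs to the tumour necrosis factor receptors with a death domain. It binds all the neurotrophins and, together with sortilin (SORT1) or SorCS2, their uncleaved precursors. In the breast, p75 is known as a marker of basal and myoepithelial cells.

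METTL3 adds the methyl group of N6-methyladenosine (m6A), whose preferred context in RNA includes GGACU, written GGACT in the gene. To show where these letters stand in the members, the match nearest to the stop codon was read from the coding part of the MANE Select transcript for 4 of them (GENCODE v44, hg38), with 12 bases on each side and the match in capitals.
BDNF: tgcggacccatgGGACTctggagagcgtg
NTRK2: ggtgaaaatcggGGACTttgggatgtccc
NTRK3: agtgaagattggGGACTtcggcatgtcca
SORCS2: ctcggtgctgcaGGACTccagggtcctcc
These matches begin at coding base 122 of BDNF, 2127 of NTRK2, 2088 of NTRK3 and 2844 of SORCS2. The NTRK2 and NTRK3 stretches are identical at 23 of 29 bases. NGFR had 5 matches in its transcript of 3408 bases and none of them was coding. BDNF had 1 match in 3985 bases, or 0.251 per kb, which was the lowest density among the members, and 13.0% of 19061 MANE Select transcripts had a lower one. NGFR, with 1.47 per kb, had the highest density of the members, and 77.7% of transcripts lay below it. The median over all transcripts was 0.924 per kb, and 88.5% held at least 1 match. A match only gives the letters, and methylation of these RNAs was not measured in the values used here.

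The values are normalized read counts per gene, which summed to between 21347352 and 31681834 per library, and the depth behind a single value is unknown. METTL3 itself ranged from 459 to 752 normalized counts in the negative MCF10A libraries and from 509.8 to 981 in those labelled knockdown, where it differed by 0.33 on the log2 scale (adjusted p = 0.618). The difference was -0.17 in MCF10AT1 (adjusted p = 0.707) and -0.49 in MCF10CA1h (adjusted p = 0.0234), where the call was lost without the negative library c (adjusted p = 0.0906) or the knockdown library b (adjusted p = 0.0854). METTL3 RNA was therefore not shown to be lower in the libraries labelled knockdown of MCF10A and MCF10AT1, and the names of the groups follow the labels. The study reports less METTL3 protein by Western blot in each line, moderately so in MCF10CA1h, and a lesser decrease of its mRNA by real-time PCR. It also reports significantly lower m6A in total RNA of MCF10AT1 and MCF10CA1h, and a non-significant decrease in MCF10A. Protein and m6A are not measured by the values used here. The negative MCF10AT1 libraries were the least alike within a group, with a lowest correlation of 0.874, and its library c lay closer to a MCF10A knockdown library (r = 0.941) than to its own group (mean r = 0.903). In MCF10AT1 the knockdown libraries held 11.6 to 79.2 normalized counts of CDH1, against 2105 to 6138 in the negative ones. EPCAM was at 78.8 to 126 against 3494 to 4291, and the sum over 10 fibroblast and mesenchyme markers was 118103 to 206507 against 3785 to 5132. Of the 7 tested of these, COL3A1, THY1, FN1 and VIM were called higher, beside 7.07% of all genes, and 0 lower. COL1A1 (-0.29) and PDGFRB (-0.10) lay lower and DCN (0.79) higher without a call, and LUM stayed below 1 in both arms. The basal keratins KRT5, KRT14 and KRT17 were called lower, with log2 fold changes of -4.24, -2.36 and -4.47 (limma, adjusted p = 0.00289, 0.0464 and 3.83e-05). The keratin KRT18, at 13608 to 28075 against 18503 to 48394, was not called. Of the 8 basal and myoepithelial markers tested, only KRT5, KRT14 and KRT17 were called. TP63 and ITGB4 lay higher and ITGA6, ACTA2 and MYLK lower, all without a call. The sum over 9 such markers overlapped, at 59045 to 174410 in the knockdown and 90516 to 126733 in the negative line. The changes in CDH1, EPCAM, the basal keratins and the mesenchyme sum go together with every MCF10AT1 result below. Their part in those results was not tested. Of 8 markers of Schwann cells and neural crest, other cells known for p75, SOX10 and PMP2 did not pass 1.14 in any of the 18 libraries. In MCF10AT1, 5 of the 8 stayed below 1 normalized count in all knockdown libraries and 6 in all negative ones. The sum over these 8 was 413 to 474 in the knockdown and 1207 to 1801 in the negative MCF10AT1 line.

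**Figure D1:**
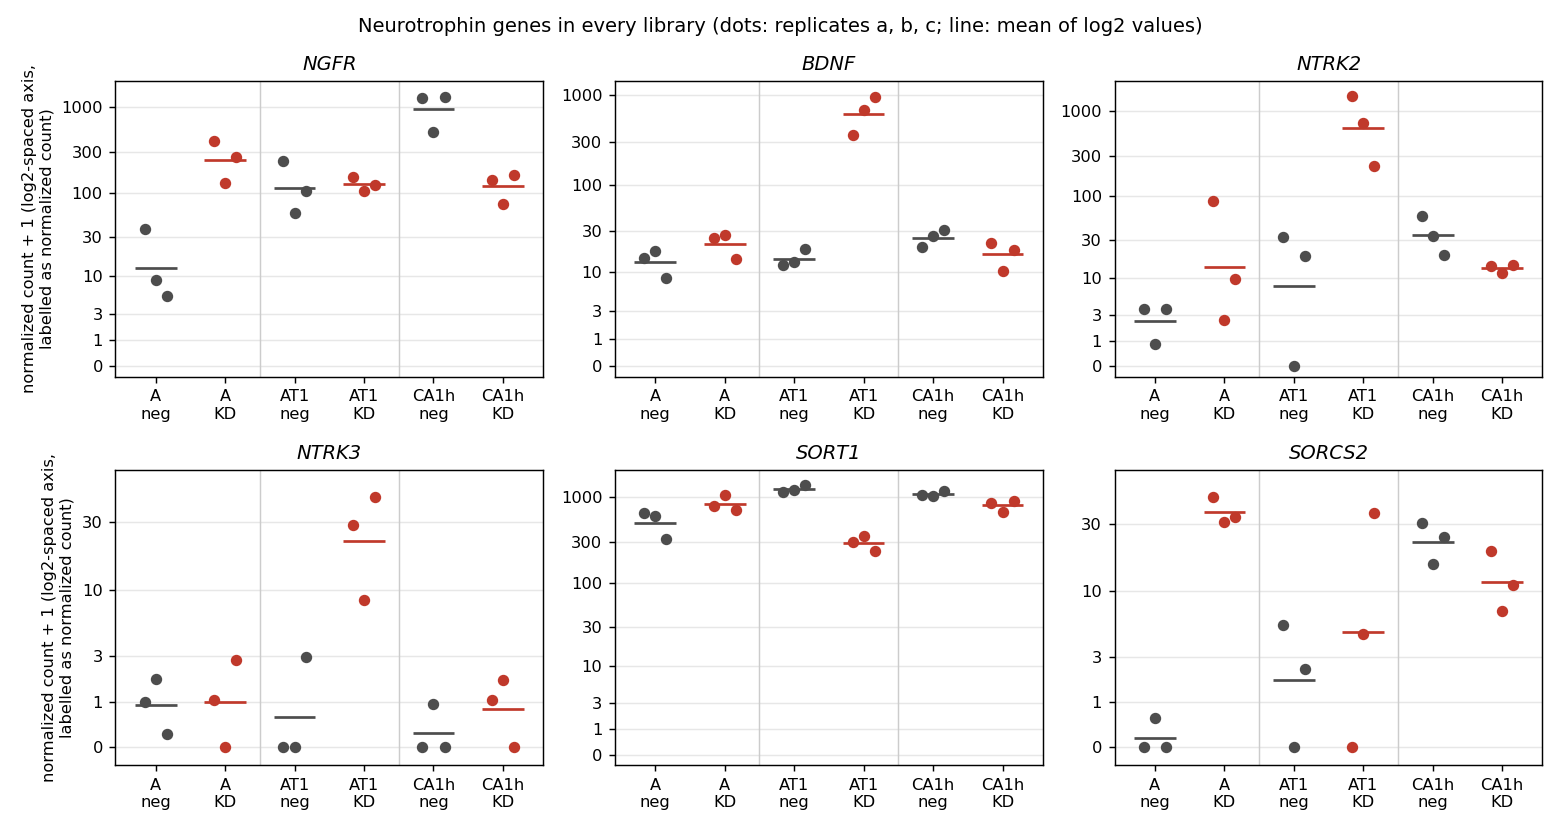
Normalized counts of the 6 genes in each library (dots, replicates a, b and c from left to right) for the negative (neg, black) and knockdown (KD, red) lines of MCF10A (A), MCF10AT1 (AT1) and MCF10CA1h (CA1h), on an axis spaced by log2(value + 1). The line is the mean of the log2 values. NGFR was highest in the negative MCF10CA1h line, and BDNF, NTRK2 and NTRK3 in the knockdown MCF10AT1 line.

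NGFR, the p75 receptor (ENSG00000064300, hg38 chromosome 17, 49495293 to 49515008, plus strand), was the member with the widest range in the negative lines. It was at 38.2, 8.93 and 5.54 normalized counts in replicates a, b and c of negative MCF10A. In negative MCF10AT1 it was at 238, 57.9 and 107, and in negative MCF10CA1h at 1262, 516 and 1313. The libraries of these 3 groups do not overlap, and the level was higher in each later line of the series. Between negative MCF10CA1h and MCF10AT1 the difference was 3.05 on the log2 scale (SE 0.72, limma, adjusted p = 0.0165), a ratio of means of 7.68. Of the 15652 genes tested there, 11.0% were called higher and 21.3% had all MCF10CA1h libraries above those of MCF10AT1. The call was lost without the MCF10CA1h library a (adjusted p = 0.0670) or c (adjusted p = 0.0666). The differences from MCF10A are not tested, since those controls belong to the contrast that chose NGFR, and were 3.07 for MCF10AT1 and 6.12 for MCF10CA1h. The shares of genes with all libraries above those of MCF10A were 18.3% and 31.4%.

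The knockdown lines of NGFR stood closer together than the negative ones. In the knockdown MCF10A line NGFR was at 399, 130.4 and 265 normalized counts, in MCF10AT1 at 154, 105 and 123, and in MCF10CA1h at 142, 75.01 and 164. In MCF10A, the contrast used by the rule, the knockdown mean was 265 ± 135 (SD, n = 3) against 17.6 ± 17.95, a difference of 4.14 on the log2 scale. In MCF10AT1 the libraries of both arms overlapped, and the difference was 0.14, with a 95% interval from -1.09 to 1.38 (limma, adjusted p = 0.893). In MCF10CA1h every knockdown library lay below every negative one, and NGFR fell from 1030.1 ± 446 to 127 ± 46.5, a log2 fold change of -2.96 (SE 0.37, limma, adjusted p = 0.000892). Among the 15127 genes tested in MCF10CA1h, 4.85% were called lower and 15.3% had all knockdown libraries below the negative ones. NGFR was thus higher in the MCF10A knockdown line, lower in that of MCF10CA1h and within the spread in that of MCF10AT1. The difference between the MCF10CA1h and MCF10AT1 effects was -3.11 (SE 0.90, limma interaction, adjusted p = 0.0235). This call was lost without the MCF10AT1 knockdown library a (adjusted p = 0.0501), the MCF10CA1h negative library a (adjusted p = 0.0622) or c (adjusted p = 0.0628), or the MCF10CA1h knockdown library b (adjusted p = 0.0643). The basal keratin KRT14, which marks the same breast cells as p75, was at 836, 1027 and 1247 in negative and at 4220, 5739 and 3908 in knockdown MCF10CA1h, and the sum over 9 basal and myoepithelial markers was 290498 to 301349 in the negative and 373993 to 413930 in the knockdown line. Among markers of other cells, the mesenchymal FN1 rose there by 1.92. Of the 8 fibroblast and mesenchyme markers tested, 2 were called higher and 1 lower, beside 7.91% and 4.85% of all genes. The lower one was COL3A1, at -1.22 (limma, adjusted p = 0.0343), and PDGFRB lay lower without a call (-1.95). The sum of the 10 fibroblast and mesenchyme markers was 27975 to 33022 in the negative and 41173 to 52158 in the knockdown line. The neuron markers SYT1 and TUBB3 rose by 1.96 and 1.03, the 2 tested of 6 in the table, and GAP43 stayed below 1 in every MCF10CA1h library. The part of these markers in the fall of NGFR was not tested. In these bulk samples, fewer cells with p75 and less of its RNA per cell cannot be told apart.

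BDNF, the ligand of TrkB (ENSG00000176697, hg38 chromosome 11, 27654893 to 27722058, minus strand), was low in 5 of the 6 groups. It was at 14.7, 17.7 and 8.49 normalized counts in negative MCF10A and at 25.4, 27.5 and 14.1 in the knockdown line. In MCF10CA1h it was at 19.9, 26.5 and 30.9 in the negative line and at 22.2, 10.3 and 18.3 in the knockdown line. In negative MCF10AT1 it was at 12.2, 13.2 and 18.5, and of these 5 groups each overlaps with the next in order of level. The knockdown MCF10AT1 libraries stood apart at 357, 680.0 and 942. BDNF rose there from 14.6 ± 3.40 to 660 ± 293 (SD, n = 3), a ratio of means of 45.1 and a log2 fold change of 5.31 (SE 0.47, limma, adjusted p = 0.000267). In MCF10AT1, 7.07% of the 16050 genes tested were called higher, and 17.3% had all knockdown libraries above the negative ones. In MCF10CA1h the difference was -0.62, with a 95% interval from -1.52 to 0.28 (adjusted p = 0.353), and it differed from that of MCF10AT1 by -5.93 (SE 0.61, limma interaction, adjusted p = 2.95e-06). The difference in MCF10A was 0.68 and is not tested. Among the negative lines BDNF differed by 0.78 between MCF10CA1h and MCF10AT1 (adjusted p = 0.228), by 0.91 between MCF10CA1h and MCF10A (adjusted p = 0.125) and by 0.13 between MCF10AT1 and MCF10A (adjusted p = 0.832), and none of these passed the threshold.

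The antisense gene BDNF-AS overlaps BDNF on the other strand, and whether the counting used strand is not given in the sources used here. It is named because of this overlap, after its values were seen. BDNF-AS was at 20.2, 38.1 and 96.0 normalized counts in the knockdown MCF10AT1 libraries and at 0 to 35.7 elsewhere, so it was below BDNF in each of those 3 knockdown libraries. Among the other ligands, NTF4 was at 2.12, 1.69 and 2.12 in knockdown MCF10AT1 and at 54.6, 15.5 and 46.1 in the negative line. NTF4 also binds TrkB, and the groups do not overlap, in the direction opposite to BDNF. It reached the minimum mean there only through its negative libraries, so its log2 fold change of -3.56 is a description. In MCF10CA1h it was at 72.5, 75.6 and 88.6 in the knockdown and at 44.9, 48.1 and 60.0 in the negative line, and its effect differed from that of MCF10AT1 by 4.19 (limma interaction, adjusted p = 0.000165). NTF3 did not pass 10.9, a value reached in the knockdown MCF10AT1 line, and was below the minimum mean of 10 for a test.

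NTRK2, the TrkB receptor (ENSG00000148053, hg38 chromosome 9, 84668375 to 85095751, plus strand), was highest in the same group as its ligand BDNF. It was at 1495, 737 and 226 normalized counts in knockdown MCF10AT1 and at 32.0, 0 and 19.1 in the negative line. All 3 knockdown libraries lay above the negative ones, and they differed among themselves more than those of BDNF did. The order of the 3 libraries was opposite for the pair, since replicate a was highest for NTRK2 and lowest for BDNF. NTRK2 rose by 6.18 on the log2 scale (SE 1.28, limma, adjusted p = 0.0156), a ratio of means of 48.0. The call was lost without knockdown library a (adjusted p = 0.0682) or b (adjusted p = 0.0625), which left log2 fold changes of 5.55 and 6.06. Without negative library b, where NTRK2 was at 0, the log2 fold change was 4.61, the lowest with 1 library left out. With the replicate letters as a replicate block the adjusted p was 0.000244.

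Elsewhere NTRK2 was low. In negative MCF10A it was at 3.79, 0.82 and 3.75, and in the knockdown line at 87.8, 2.48 and 9.74, where the high value rests on library a. In MCF10CA1h it was at 58.2, 33.6 and 19.4 in the negative line and at 14.2, 11.5 and 14.4 in the knockdown line. The MCF10CA1h libraries did not overlap, and the difference of -1.28 (SE 0.43) did not pass the threshold (limma, adjusted p = 0.0838), though it did without the negative library c (adjusted p = 0.0424). The MCF10CA1h and MCF10AT1 effects differed by -7.45 (SE 1.68, limma interaction, adjusted p = 0.00486), and by -5.89 without the negative MCF10AT1 library b. Between the negative lines, NTRK2 was higher in MCF10CA1h than in MCF10A by 3.33 (adjusted p = 0.0486), and leaving out any 1 of these 6 libraries ended the call, with adjusted p between 0.0718 and 0.148. The negative MCF10AT1 line differed from MCF10A by 1.33 (adjusted p = 0.393), and by 2.90 without its library b, in which NTRK2 was at 0 (adjusted p = 0.0179).

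NTRK3, the TrkC receptor (ENSG00000140538, hg38 chromosome 15, 87859751 to 88256791, minus strand), was at 28.2, 8.40 and 43.98 normalized counts in knockdown MCF10AT1. In negative MCF10AT1 it was at 0, 0 and 2.92, and it did not pass 2.76 in the other 4 groups. NTRK3 passed the minimum mean only through its knockdown libraries, so it could be tested only if they were high. The difference of 3.87 on the log2 scale is therefore a description, with no test. In every other comparison NTRK3 was below the minimum.

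**Figure D2:**
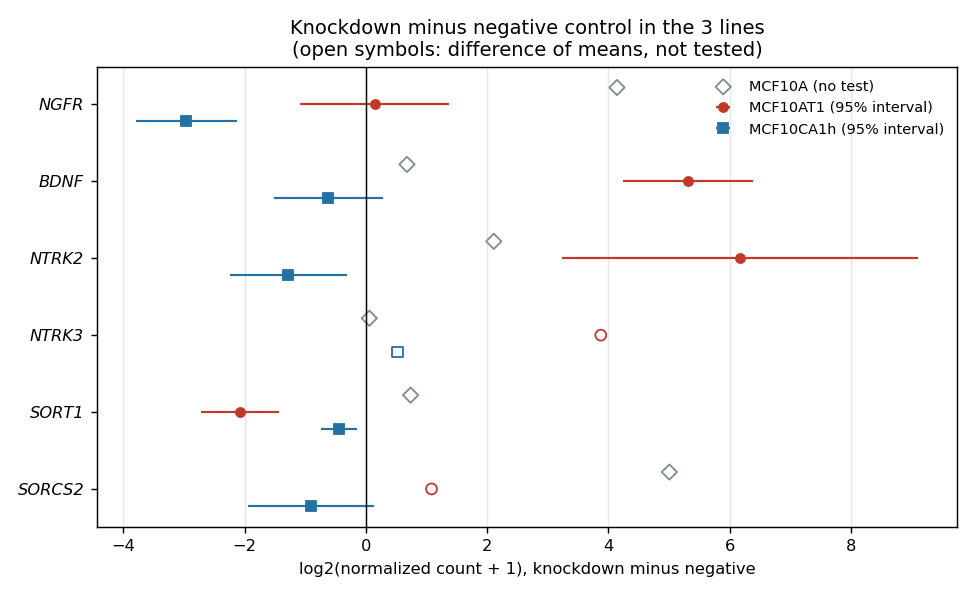
Difference between knockdown and negative line in log2(normalized count + 1) for each gene. Filled symbols with 95% intervals are limma estimates in MCF10AT1 (red circles) and MCF10CA1h (blue squares), and open symbols are differences of means without a test (grey diamonds for MCF10A, NTRK3 and SORCS2 where too low). The MCF10AT1 intervals of BDNF and NTRK2 lie above 0 and that of SORT1 below it, while in MCF10CA1h the lowest estimate is that of NGFR at -2.96.

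Since a receptor's length sets how many reads it gathers, receptors were compared with each other per kb of their MANE Select transcript. NGFR was above NTRK2 in all 3 libraries of 5 groups. In knockdown MCF10AT1 it was above NTRK2 only in library c, where the ratio of NGFR to NTRK2 was 1.38, and the ratios were 0.263 in library a and 0.361 in library b. In the negative MCF10AT1 line this ratio was 18.9 in library a and 14.2 in library c, and NTRK2 was at 0 in library b. In MCF10CA1h the ratio lay between 39.0 and 172 in the negative line and between 16.6 and 29.0 in the knockdown line, as NGFR fell. The mean of BDNF in knockdown MCF10AT1 was 166 per kb, and that of NTF4 was highest in knockdown MCF10A at 95.4. These levels are descriptions, with no test between genes.

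**Figure D3:**
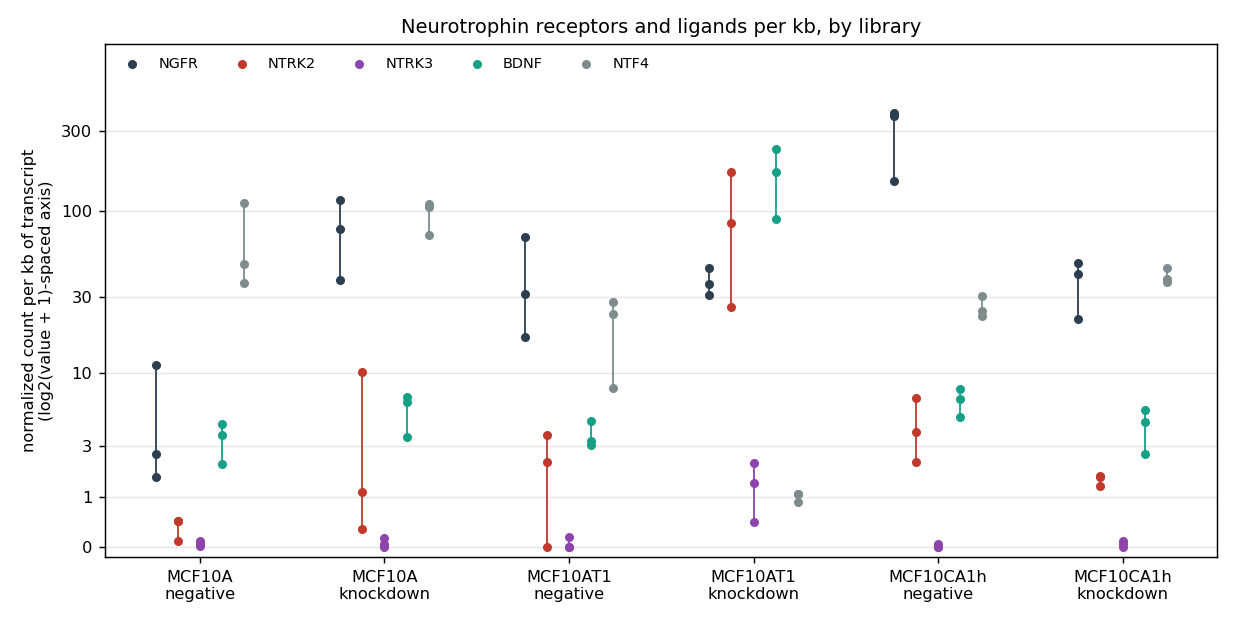
Normalized count per kb of transcript in each library (dots, joined from lowest to highest) for 3 neurotrophin receptors and 2 ligands in the 6 groups, on an axis spaced by log2(value + 1). NGFR is the highest receptor in the MCF10CA1h lines, and in knockdown MCF10AT1 the mean of NTRK2 is 94.5 per kb against 37.4 for NGFR.

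SORT1, which encodes sortilin, the co-receptor for proneurotrophins and a sorting receptor of the Golgi (ENSG00000134243, hg38 chromosome 1, 109309568 to 109397918, minus strand), ranged from 235 to 1375 normalized counts over the 18 libraries. It was at 646, 596 and 328 in negative MCF10A, at 1147, 1197 and 1375 in negative MCF10AT1 and at 1056, 1034 and 1174 in negative MCF10CA1h. The MCF10A libraries lay below those of both other lines. SORT1 was higher in negative MCF10AT1 than in MCF10A by 1.30 (SE 0.26, limma, adjusted p = 0.00863) and in negative MCF10CA1h than in MCF10A by 1.11 (SE 0.26, adjusted p = 0.00935). In these comparisons 13.3% and 19.0% of genes were called higher. MCF10CA1h and MCF10AT1 differed by -0.19, with a 95% interval from -0.77 to 0.40 (adjusted p = 0.641).

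In knockdown MCF10AT1, SORT1 was at 303, 352 and 235, below every negative library of that line, and it was the member that fell where BDNF and NTRK2 rose. The log2 fold change was -2.07 (SE 0.28, limma, adjusted p = 0.00216), from 1240 ± 120.2 to 297 ± 59.0 (SD, n = 3), and 5.96% of tested genes were called lower and 15.6% had all knockdown libraries below the negative ones. In knockdown MCF10CA1h it was at 862, 663 and 895, also below every negative library, but the difference of -0.44 (SE 0.13) did not pass the threshold (adjusted p = 0.0580), except with values brought to equal sums per library (adjusted p = 0.0451). The 2 effects differed by 1.63 (SE 0.35, limma interaction, adjusted p = 0.00317). In MCF10A, where no test is given, SORT1 was at 789, 1054.9 and 704 in the knockdown line, above every negative library, with a difference of 0.74 on the log2 scale that was 0.43 without the negative library c.

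SORCS2, a receptor of the sortilin family that joins p75 (ENSG00000184985, hg38 chromosome 4, 7192538 to 7742836, plus strand), was at 0, 0.56 and 0 in negative MCF10A and at 45.9, 31.1 and 33.3 in the knockdown line. It passed the minimum mean there only through the knockdown libraries. In MCF10AT1 it was at 5.59, 0 and 2.32 in the negative line and at 0, 4.67 and 35.6 in the knockdown line, where library c alone was high, and it was too low for a test. In MCF10CA1h it was at 30.3, 15.6 and 24.2 in the negative line and at 19.3, 7.14 and 11.2 in the knockdown line. These overlapped, with a difference of -0.90 and a 95% interval from -1.94 to 0.14 (limma, adjusted p = 0.241). Across the 6 groups the order of SORCS2 differed from that of NGFR in the highest group, since NGFR was highest in negative MCF10CA1h and SORCS2 in knockdown MCF10A. Both were lowest in negative MCF10A. Of the other sortilin relatives, SORL1 was at 318.9, 298 and 253 in negative MCF10CA1h and at 192, 156 and 157 in the knockdown line, a fall of 0.78 on the log2 scale (SE 0.17, adjusted p = 0.0134). In MCF10AT1 it was called lower only with the replicate block (-1.70, adjusted p = 0.0458). SORCS1 and SORCS3 did not pass 2.55 in any library.

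Counted together, the members called in MCF10AT1 were BDNF and NTRK2 as higher and SORT1 as lower, while NGFR was not called, beside 13.0% of all genes called in either direction. NTRK3, which passed the minimum only through its high libraries, is not counted, and SORCS2 was below it. In MCF10CA1h the member called was NGFR, of 5 tested, beside 12.8% of all genes. In the interaction of these 2 lines BDNF, NTRK2 and NGFR were called lower in MCF10CA1h relative to MCF10AT1 and SORT1 higher, of 5 tested, beside 18.2% of genes (8.51% lower and 9.67% higher), and SORCS2 differed by -1.98 (SE 1.35, adjusted p = 0.349). Between negative MCF10CA1h and MCF10AT1 the member called was NGFR, of 4 tested, beside 21.8%. SORT1 was the member called between negative MCF10AT1 and MCF10A, of 3 given a test, beside 28.1%, and SORT1 and NTRK2 between negative MCF10CA1h and MCF10A, of 3, beside 37.8%, where NTRK2 reached the minimum mean only through the lines other than MCF10A. In MCF10A, where 2.65% of 15416 genes were called between the arms and 10.5% had all knockdown libraries above the negative ones, NGFR, SORT1 and SORCS2 had knockdown libraries that lay above every negative one, and nothing is read from that count. The comparisons within a line, the interaction and those between negative lines share control libraries. The 3 calls of NGFR all rest on the negative MCF10CA1h libraries.

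The other genes of the pathway were taken from 8 lists of ligands, receptors, adaptors, processing enzymes and early response genes, with 60 genes besides the members, of which 59 were in the table. In MCF10AT1, 6 of the 49 tested were called higher and 6 lower, beside 7.07% and 5.96% of all genes, with a median log2 fold change of -0.40 against 0.02 over all genes. The 6 lower include NTF4, which reached the minimum mean there only through its negative libraries, so its part in the count is a description. With the replicate block, which raised the calls over all genes as well, 9 were higher and 12 lower. NTF4 is again among the lower, and the higher include ARC, which reached the minimum mean only through its knockdown libraries. In MCF10CA1h, 2 of 49 were called higher and 4 lower, beside 7.91% and 4.85% of all genes, with a median of -0.03 against -0.02. In MCF10A, SORL1, PLAT and EGR3 were called higher and none of the 49 lower (limma), beside 1.16% and 1.49% of all genes. At an unadjusted p under 0.05 8 were higher and 9 lower, beside 2839 of all 15416 genes in either direction. With the replicate block 7 were called higher and 4 lower. This is the contrast that chose NGFR, and nothing is read from these counts.

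Among the p75 partners and adaptors, MAGED1, which binds the p75 intracellular domain, was the 1 called of 10 tested in MCF10AT1. It was at 9009, 5206 and 4021 in the knockdown line and at 1421, 1641 and 1157 in the negative one, a log2 fold change of 2.04 (SE 0.34, adjusted p = 0.00606). With the replicate block BEX3 was called higher as well (0.86, adjusted p = 0.0269), and RIPK2, KIDINS220 and PRKCI were called lower, at -1.11 to -1.19. In MCF10CA1h MAGED1 rose by 0.43 (SE 0.09, adjusted p = 0.0138). Of 13 adaptors and effectors of Trk receptors, SHC1, which couples activated Trk receptors to Ras, rose by 2.07 (SE 0.49, adjusted p = 0.0279) in MCF10AT1 and by 0.38 (SE 0.10, adjusted p = 0.0330) in MCF10CA1h. SH2B1, another Trk adaptor, rose by 0.93 in MCF10AT1 (adjusted p = 0.0495), and SOS1 was called lower there only with the replicate block (-1.82, adjusted p = 0.00639).

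Of 8 genes for processing and release of proneurotrophins, PLAT, the tissue plasminogen activator, was called higher in MCF10AT1, at 1817, 1458 and 1429 against 669.8, 254 and 743 (log2 fold change 1.63, adjusted p = 0.0399). In MCF10CA1h the 1 called was PCSK5, a proprotein convertase, which fell by 1.80 (SE 0.30, adjusted p = 0.00370). FURIN, the convertase best known for cleaving proneurotrophins, was at 6238, 5776 and 5074 in knockdown MCF10AT1 and at 2584, 3951 and 2284 in the negative line, and was called there only with the replicate block (0.99, adjusted p = 0.0139).

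Of 10 early genes that neurotrophins induce in neurons, and that other growth factors induce as well, 5 were called lower and none higher in MCF10AT1 (limma), beside 5.96% and 7.07% of all genes. These were NR4A1, EGR2, FOS, FOSB and EGR1, with NR4A1 lowest at -4.46 (SE 0.76, adjusted p = 0.00629), followed by EGR2 at -3.90 (SE 0.76, adjusted p = 0.0117) and FOS at -2.55 (SE 0.54, adjusted p = 0.0174). The list's median was -1.74. In MCF10CA1h, EGR3 was the 1 called, at -1.17 (SE 0.29, adjusted p = 0.0270), and the list's median was -0.76. At an unadjusted p under 0.05, 1 of the 10 was higher and 5 lower in MCF10AT1, and 0 were higher and 7 lower in MCF10CA1h. Of all genes, 4425 of 16050 in MCF10AT1 and 4230 of 15127 in MCF10CA1h passed that unadjusted limit in either direction. With the replicate block 7 of the 10 were called lower in MCF10CA1h, where the letters do not pair the libraries. The share of all genes called with that block is not given here, so nothing is read from this count. ARC, at 43.5, 19.1 and 30.1 in the knockdown MCF10AT1 line against 14.8, 2.65 and 1.92, had the highest log2 fold change of the list at 2.46. It is the 1 gene that was higher at an unadjusted p, and it was called only with the replicate block. ARC reached the minimum mean only through its knockdown libraries, so its difference is a description, with no test.

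Of 6 other tumour necrosis factor receptors with a death domain, the receptor family of p75, TNFRSF21 (DR6) and TNFRSF1A rose in MCF10AT1, by 2.56 (SE 0.39, adjusted p = 0.00366) and 2.26 (SE 0.26, adjusted p = 0.000870). With the replicate block FAS was called lower as well (-1.40, adjusted p = 0.00847). NGFR did not pass the threshold in that line. In MCF10CA1h, TNFRSF21 fell by 0.52 (SE 0.14, adjusted p = 0.0399) while NGFR fell by 2.96 on the log2 scale.

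Between the negative lines, 7 of the 50 pathway genes tested were called higher and 1 lower in MCF10CA1h than in MCF10AT1, 1 higher and 11 lower in MCF10AT1 than in MCF10A, and 7 higher and 11 lower in MCF10CA1h than in MCF10A. Of all genes, 11.0%, 13.3% and 19.0% were called higher and 10.8%, 14.7% and 18.8% lower in these comparisons. The 7 higher in MCF10CA1h than in MCF10AT1 were PLAT, SHC4, PCSK5, TNFRSF21, TNFRSF1A, SHC1 and MAGED1, with log2 fold changes from 2.84 to 0.99, and RIPK2 was lower at -0.86. Those lower in MCF10AT1 than in MCF10A included TNFRSF25, RTN4, GAB1, CPE, SHC1, NTF4, TRAF6, TNFRSF21, JUNB and TNFRSF1A, from -2.28 to -0.57. In MCF10CA1h those higher than in MCF10A included PLAT, PCSK5, SORL1 and SH2B1, from 4.54 to 0.85. ARC is counted among the 7 higher, with means of 26.0 in MCF10CA1h and 0.23 in MCF10A. It reached the minimum mean only through MCF10CA1h, so its difference of 4.25 is a description. Those lower in MCF10CA1h than in MCF10A included CPE, RTN4, TNFRSF25, KIDINS220, PRKCI, FAS, DUSP1 and EGR1, from -2.61 to -0.998. PLAT had the widest difference of those higher, at a log2 fold change of 4.54 for MCF10CA1h against MCF10A (adjusted p = 0.000909) and 2.84 against MCF10AT1 (adjusted p = 0.0126). SORL1 was higher than in MCF10A in MCF10AT1 (1.87, adjusted p = 0.0459) and MCF10CA1h (2.10, adjusted p = 0.0227), as SORT1 was. RTN4 (Nogo), which signals through a receptor complex with p75, was lower than in MCF10A, with log2 fold changes of -2.03 in MCF10AT1 and -2.01 in MCF10CA1h (adjusted p = 0.00655 and 0.00345), as was TNFRSF25 with -2.28 and -1.93 (adjusted p = 0.000929 and 0.000914). In the interaction of the MCF10CA1h and MCF10AT1 effects, 3 pathway genes were called higher and 7 lower of 49, beside 9.67% and 8.51% of all genes. Those higher were NTF4, RIPK2 (1.48, adjusted p = 0.00808) and FOS (1.93, adjusted p = 0.0355), and those lower were FURIN, SH2B1, MAGED1, SHC1, PCSK5, TNFRSF1A and TNFRSF21, from -1.04 (adjusted p = 0.0146) to -3.08 (adjusted p = 2.56e-05).

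**Figure D4:**
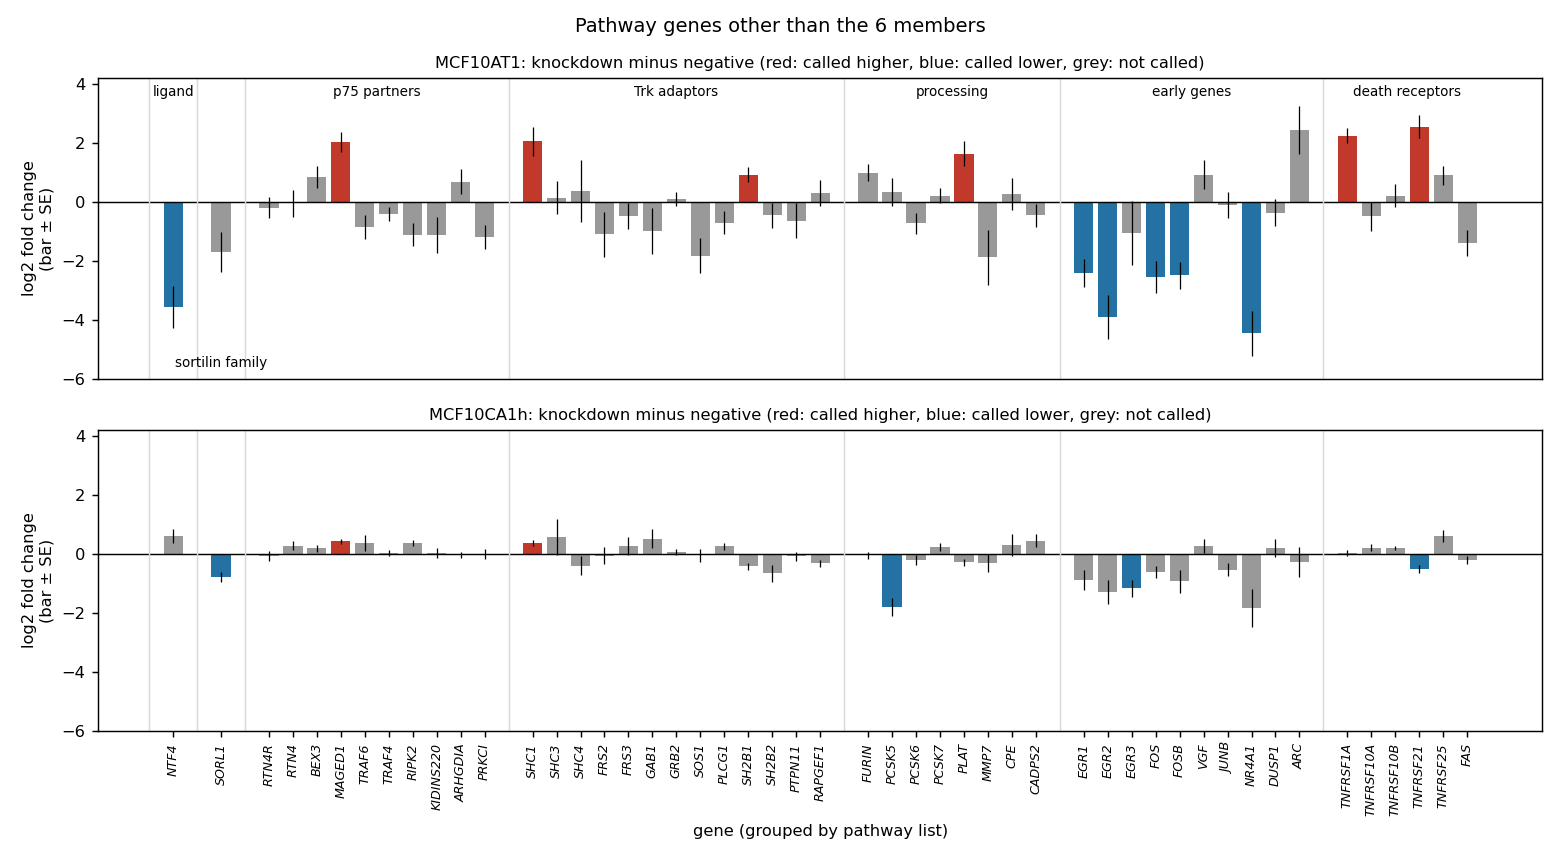
Log2 fold change of knockdown against negative line (bars, with 1 SE) for the tested pathway genes other than the 6 members, grouped by list, in MCF10AT1 (top) and MCF10CA1h (bottom). Red bars are called higher, blue bars lower and grey bars not called. In MCF10AT1, 6 genes are called in each direction, and 5 of the 6 lower ones are early genes. The other lower one is NTF4, which reached the minimum mean only through its negative libraries.

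Genes with the most similar course to each member were sought by Pearson correlation of log2(normalized count + 1) over the 18 libraries, among 15897 genes with a mean of at least 10. Libraries of a group share their line, so they are not 18 independent points, and the values are given without a test. For NGFR they were LARGE2 (r = 0.88), TIMM21 (r = 0.87) and PLAT (r = 0.86), and PLAT was also highest in negative MCF10CA1h and lowest in negative MCF10A. For BDNF they were F2RL2 (r = 0.97), SPINK13 (r = 0.95) and RORB (r = 0.95). The genes nearest to NTRK2 were C1QTNF1, BBS1 and CRIP2, each at r = 0.90. Those nearest to SORT1 were RPIA (r = 0.93), ZNF287 (r = 0.92) and C1orf226 (r = 0.92), and those nearest to SORCS2 were FAM174A (r = 0.84), DLL1 (r = 0.82) and AKR1B10 (r = 0.81). Among the members themselves, the correlation was 0.79 between BDNF and NTRK2, 0.72 between NGFR and SORCS2, -0.67 between BDNF and SORT1, and 0.13 between NGFR and BDNF.

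BDNF and SORT1 moved in opposite directions in MCF10AT1, so the 250 bases before a start of each were compared, as RefSeq lists them (GRCh38.p14). RefSeq entries were found for 4 of the 6 members, with 5 starts for BDNF and 2 for SORT1, and none for NGFR and SORCS2. Windows with many bases of the gene's own exons were passed over. Of the starts left, the nearest to that of the MANE Select transcript was used. Capitals mark GGGCGG, the core of a GC box, on either strand.
BDNF, chr11:27701622-27701871, minus strand: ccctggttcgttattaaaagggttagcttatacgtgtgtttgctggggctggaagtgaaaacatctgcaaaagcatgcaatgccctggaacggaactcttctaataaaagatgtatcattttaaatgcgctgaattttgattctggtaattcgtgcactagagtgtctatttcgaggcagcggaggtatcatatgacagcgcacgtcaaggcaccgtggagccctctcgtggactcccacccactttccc
SORT1, chr1:109397919-109398168, minus strand: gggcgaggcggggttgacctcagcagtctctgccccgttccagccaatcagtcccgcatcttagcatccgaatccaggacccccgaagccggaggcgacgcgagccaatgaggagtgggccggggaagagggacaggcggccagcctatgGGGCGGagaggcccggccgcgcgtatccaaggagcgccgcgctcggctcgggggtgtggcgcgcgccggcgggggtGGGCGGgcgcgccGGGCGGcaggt
The SORT1 window ends at the start of its MANE Select transcript, is 74.0% G and C, and holds 3 GGGCGG matches. The BDNF window lies before 1 of several starts, 1166 bases from that of the MANE Select transcript, is 46.8% G and C, and holds no match. Over 35116 listed promoters the median was 58.0%, and 42.6% held GGGCGG or CCGCCC. The E-box CACCTG or CAGGTG, the AP-1 letters TGACTCA or TGAGTCA and the cAMP response letters TGACGTCA, which read the same on both strands, were searched as well. They stood in 17.5%, 4.2% and 1.65% of promoters and in neither of these windows. No values per start were used, so which start was active is not known here. The 2 windows also differ in how far they lie from the MANE Select start, and their part in the changes was not tested.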

How the data were processed

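RNA from 18 libraries was sequenced, in 6 groups of 3. The authors quantified reads against hg38 with kallisto 0.46.1, used tximport to reach gene level, and normalized by DESeq2 1.26.0 in R 4.1.1. The deposited values are DESeq2-normalized counts, a signal per gene given with 2 decimals. The protocol names ribosomal RNA-depleted total RNA and the labels polyA RNA, which is not settled here. Reads could not be recovered, since 23.8% to 45.7% of low values lay at whole multiples of a common step within 0.05, so depth per gene is unknown and no count test was run. Low values of 0 may be failed estimates.

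Values were tested with limma 3.58.1 (lmFit and eBayes with trend) in R 4.3.3 on log2(normalized count + 1), keeping genes whose mean normalized count in the fitted libraries reached 10. Adjusted p-values are two-sided, from limma, by Benjamini-Hochberg over all tested genes, with a threshold of 0.05. Folds on this scale understate changes of low genes. Each line was fitted alone (6 libraries), the negative lines together (9) and the interaction over 18. Tables, sequences and figures were made with Python 3.11.15, pandas 2.3.3, NumPy 2.4.6 and Matplotlib 3.10.9, and the test was tested on simulated data. The members and lists were chosen with earlier results of these data known. All members are named, with up to 3 called genes of largest change per list and comparison and the 3 genes most correlated with each member. Genes named outside this rule (BDNF-AS, NTF3, SORCS1, SORCS3, FOSB, the genes called only with the replicate block and the cell type markers) were chosen after their values were seen. Some genes of the lists and 1 sequence are not reported here.

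Replicate letters come from the titles. Deviations of same-letter libraries from their group means correlated at 0.116 to 0.221 in MCF10A and 0.110 to 0.477 in MCF10AT1, over the limit of 0.1 in all pairs, and at -0.011 to 0.046 in MCF10CA1h. The letters were therefore read as possibly pairing the first 2 lines only. The limit does not establish pairing, since same-letter negative libraries of different lines correlated at -0.268 to 0.284. For letter b of MCF10AT1 the correlation of 0.289 was close to the highest with another letter, 0.251. The main tests used no block, so adjusted p-values leave out any pairing unless the replicate block is named. In MCF10AT1, 3939 of 16050 tested genes were called with the replicate block against 2091 without it, and in MCF10A 1172 of 15416 against 409. Alternatives covered the pseudocount, filter, trend, joint fit, scaling, threshold, block and each library left out.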

Additional observations from a re-analysis of the deposited data

Results flagged for a closer look

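The knockdown effect differed between MCF10CA1h and MCF10AT1 for 4 of the 5 members tested in the interaction, by -3.11 on the log2 scale for NGFR, -5.93 for BDNF, -7.45 for NTRK2 and 1.63 for SORT1. Of these, NGFR lost its call when any of 4 libraries was left out. For NGFR, all knockdown libraries of MCF10A lay above the negative ones, with a difference of 4.14, and all those of MCF10CA1h lay below, with -2.96, and this difference between lines was not tested. For SORT1, all knockdown libraries of MCF10A lay above the negative ones, with a difference of 0.74, while all those of MCF10AT1 lay below, with -2.07, as did all those of MCF10CA1h, with -0.44. These differences between MCF10A and the other lines were not tested, since the MCF10A contrast chose the genes.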

How the results depend on the processing

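Depth per gene is unknown and each group holds 3 libraries of 1 clonal line, so low members (NTRK3, SORCS2 and NTRK2 outside knockdown MCF10AT1) rest on few reads. For the members, 288 values under alternatives other than leaving out a library kept their direction and side of the threshold, 9 lost a call, 1 gained one, 1 reversed and 1 moved. Of the values with 1 library left out, 261 kept both, 18 lost a call, 2 gained one, 4 reversed and 1 moved. The cause of these changes was not tested, beyond the fewer samples or stricter threshold. The genes called at an adjusted p under 0.01 were 1010 in MCF10AT1 (2091 at 0.05), 799 in MCF10CA1h (1929), 45 in MCF10A (409), 1370, 1226 and 3032 for negative MCF10CA1h against MCF10AT1, MCF10AT1 against MCF10A and MCF10CA1h against MCF10A, and 1597 in the interaction. Without the intensity trend 1123 were called in MCF10CA1h and 237 in MCF10A, and with 1 joint fit of all libraries 5146 in MCF10AT1 and 248 in MCF10CA1h. With the replicate block 3939 were called in MCF10AT1 and 1172 in MCF10A. The block changed no member's call. Among the other pathway genes of MCF10CA1h, where the letters do not pair the libraries, 1 was called higher and 10 lower with the block. Nothing is read from that count. Members called fell to 2 in MCF10AT1 and to 0 between negative MCF10CA1h and MCF10AT1 at 0.01, and rose to 2 in MCF10CA1h with equal sums per library. Between negative MCF10CA1h and MCF10AT1 they rose to 2 without a filter or in the joint fit, where SORCS2 was called (adjusted p = 0.0244 and 0.0238). Between negative MCF10CA1h and MCF10A 1 was called at 0.01, with a pseudocount of 0.5, a minimum mean of 50, no trend or equal sums. METTL3 in MCF10CA1h kept its value of -0.49 and lost its call at 0.01 (adjusted p = 0.0234), without the trend (0.0742) and in the joint fit (0.501). NGFR in MCF10AT1 turned to -0.019 with equal sums per library, to -0.34 without negative library b and to -0.0033 without knockdown library a, and reached 0.67 without negative library a. BDNF in negative MCF10AT1 against MCF10A turned to -0.15 without MCF10A library c and to -0.04 without MCF10AT1 library c, and reached 0.33 without MCF10A library b. With 1 library left out, genes called ranged from 52 to 1418 in MCF10A, 1020 to 2439 in MCF10AT1, 1089 to 1785 in MCF10CA1h and 2139 to 4206 in the interaction. The ranges were 1661 to 8142, 3675 to 7623 and 1608 to 5593 for negative MCF10AT1 against MCF10A, MCF10CA1h against MCF10A and MCF10CA1h against MCF10AT1. Members called ranged from 2 to 4 in MCF10AT1 (NTRK3 counted), 1 to 2 in MCF10CA1h, 3 to 4 in the interaction, 1 to 2, 1 to 2 and 0 to 1 in these negative comparisons. METTL3 ranged from 0.11 to 0.63 in MCF10A, -0.27 to -0.10 in MCF10AT1 and -0.56 to -0.40 in MCF10CA1h. An arm left with 1 or 2 libraries shares the spread of the others.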
